A study of Mus musculus with 8 samples.

Results

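The nuclear genes of the mitochondrial respiratory chain and of the ATP synthase were read in vascular smooth muscle cells that had received a mimetic of moR-21. Members were all probes of the array whose gene symbol begins with Ndufa, Ndufb, Ndufc, Ndufs, Ndufv, Uqcr, Cox4 to Cox8 or Atp5, or is Sdha, Sdhb, Sdhc or Sdhd. This gave 95 probes of 25697 and 77 gene symbols of 18138.

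MoR-21 is a small RNA cut from the precursor of miR-21, next to the mature miRNA, and the study asked what a mimetic of it does to gene expression. Primary smooth muscle cells (MAoSMC) were grown out of pieces of several mouse aortas and kept in low glucose medium with charcoal-treated serum. They were transfected with RNAiMAX, a lipid reagent, and carried either the moR-21 mimetic or a scrambled control oligonucleotide, both at 5 nM. RNA was collected after 48 h and hybridized to Illumina BeadChips. Each group had 3 samples, and a pair of arrays, A and B, was run for sample 1 of the control and for sample 3 of moR-21, so that 8 arrays stood for 6 samples. The labels give no strain, sex or age of the donor animals, do not say whether cells of different aortas were mixed, and do not state that the samples of a group came from separate cultures. The p-values therefore measure the spread between these samples, which may be technical. The label of each sample names smooth muscle cells as the source, whereas its free-text description writes AoECs, an abbreviation the labels do not explain.

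The respiratory chain sits in the inner mitochondrial membrane. Complex I takes electrons from NADH and complex II from succinate, complex III passes them to cytochrome c, and complex IV hands them to oxygen. Complexes I, III and IV pump protons, and the ATP synthase uses the returning protons to make ATP. Most subunits are encoded in the nucleus and imported. A few catalytic subunits are encoded in mitochondrial DNA, and these were not analysed here. In cultured smooth muscle the chain works beside an active glycolysis.

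The sequences below show where the transfected RNA comes from. The hairpin of Mir21a lies at chr11:86584067-86584158 on the minus strand (GRCm38.p6, RefSeq), and moR-21 comes from the stretch 5′ of the mature miRNA. Capitals in the hairpin mark the 17 bases that precede miR-21a-5p. Capitals in the mature miRNA mark its seed, bases 2 to 8. The sequence of the mimetic itself was not used here.
Mir21a hairpin: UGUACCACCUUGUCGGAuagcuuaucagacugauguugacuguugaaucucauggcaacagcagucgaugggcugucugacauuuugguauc
miR-21a-5p: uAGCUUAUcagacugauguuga

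Signals were quantile normalized over the 8 arrays and put on a log2 scale, and repeat arrays were then averaged. A probe was tested if its detection p-value was under 0.01 on at least 1 array, which kept 11651 probes. Called means a fold change over 1.3, which is 0.38 on the log2 scale, with a limma adjusted p under 0.002, the cutoffs of the study. Of the 95 member probes, 80 were tested, for 66 symbols, and 74 of them were detected on all 8 arrays. The members were bright: 43 of the 80, or 53.8%, lay among the brightest 10% of tested probes by mean signal.

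Few respiratory chain probes passed the cutoffs. After the moR-21 mimetic 4 member probes were called higher and 1 lower, which is 5.0% and 1.25% of the 80. Over all tested probes the shares were 3.12% higher and 3.85% lower. At an adjusted p under 0.05 with no fold cutoff, 19 members were higher and 7 lower, or 23.8% and 8.75%, beside 17.9% and 16% of all tested probes. The 3 moR-21 samples lay above all 3 controls in 21 members (26.3%, beside 23.7% of all probes) and below them in 9 (11.3%, beside 21.2%). Both the 7 lower and the 9 below include Cox6a2, which was detected on control arrays only. The members' log2 fold changes ran from −0.57 to 0.54 with a median of 0.04, and the median over all tested probes was 0.0048. Without moR-21 sample 2 the members' median was 0.03. For 67 of the 80 probes, the 95% interval of the change lay inside a 1.3-fold change in both directions.

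**Figure D1:**
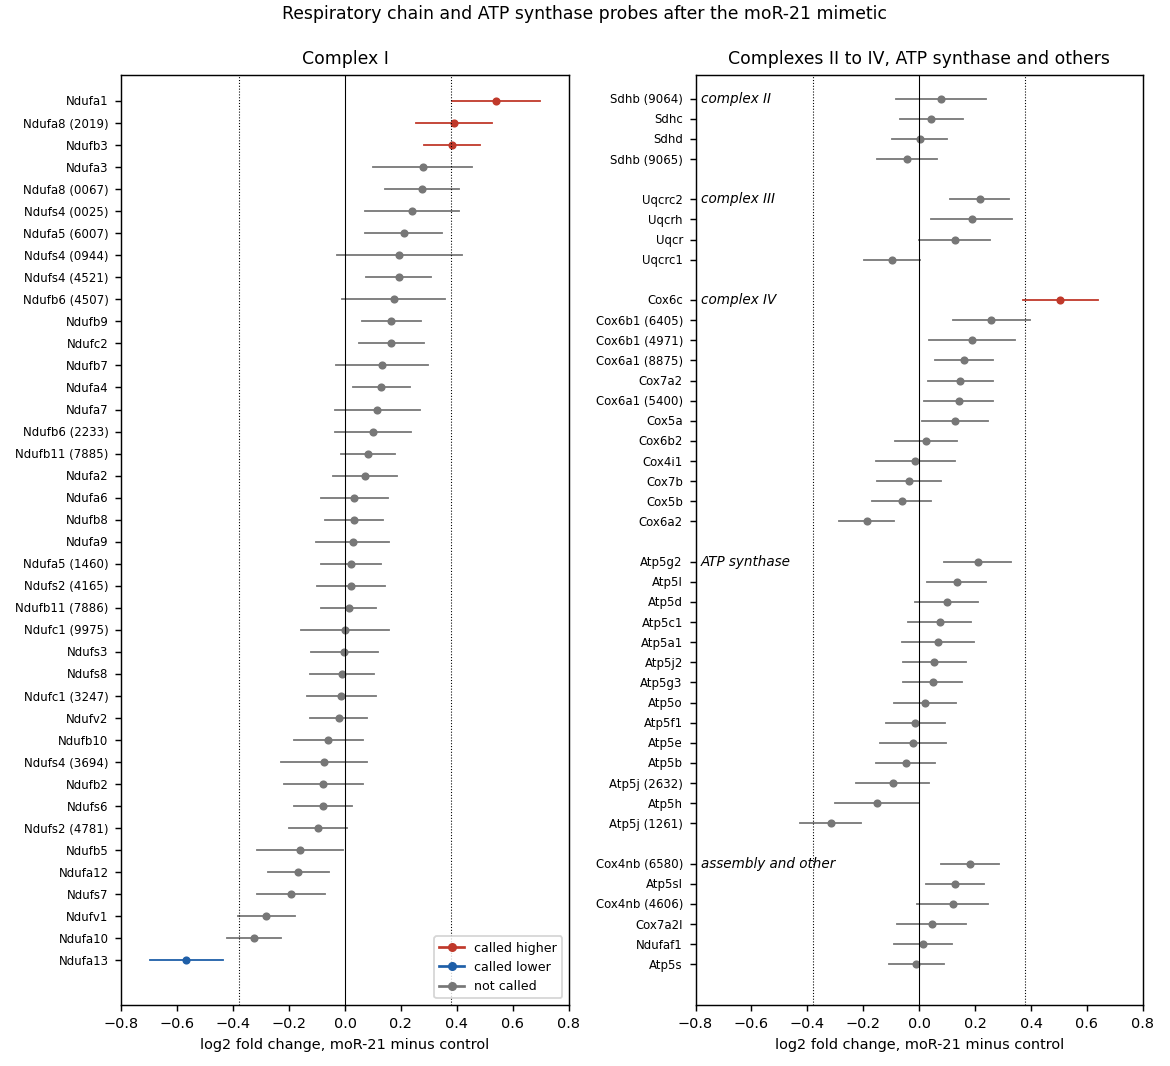
Log2 fold change (moR-21 mimetic minus scrambled control, x axis) of the 80 tested member probes by complex, as points with 95% intervals from limma. Red marks the 4 probes called higher, blue the 1 called lower and grey the rest, dotted lines mark a 1.3-fold change, and the last 4 digits of the probe name follow a symbol with several probes. Most intervals lie between the dotted lines.

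Complex I held 4 of the 5 calls. Of its 40 tested probes, 24 lay above 0 and 16 below, with a median of 0.03. Of them 3 were called higher and 1 lower, or 7.5% and 2.5%, beside 3.12% and 3.85% of all tested probes. The median was 0.06 without control sample 3 or without moR-21 sample 1. The call that fell was Ndufa13, also known as GRIM-19, an accessory subunit that complex I needs for its assembly. The gene lies on chromosome 8 (69894163 to 69902558, GRCm38.p6). On the log2 scale its probe read 12.49, 12.53 and 12.68 in the control samples and 11.91, 11.98 and 12.10 in the moR-21 samples. Every moR-21 sample was below every control. Ndufa13 fell by 0.57 (standard error 0.06, 1.48-fold lower, limma adjusted p = 7.28e-06).

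Ndufa1 rose. It encodes a small membrane subunit without which complex I is not built, and it lies on chromosome X (37187588 to 37191238). The control samples read 10.24, 10.49 and 10.42 and the moR-21 samples 10.80, 11.08 and 10.88. The groups did not overlap, and the gap between them was wider than the range inside either. The change was 0.54 on the log2 scale (standard error 0.07, 1.45-fold, limma adjusted p = 6.03e-05).

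Ndufb3 and Ndufa8, both accessory subunits, rose by less. Ndufb3 (chromosome 1, 58586397 to 58595964) read 9.30, 9.30 and 9.34 in the controls and 9.67, 9.76 and 9.66 in the moR-21 samples. Its rise of 0.38 (standard error 0.05, limma adjusted p = 2.58e-05) stood just inside the fold cutoff. Ndufa8 (chromosome 2, 36036324 to 36049338) was measured by a pair of probes. ILMN_2682019 read 9.45, 9.32 and 9.56 in the controls and 9.73, 9.89 and 9.87 in the moR-21 samples, a rise of 0.39 (standard error 0.06, 1.31-fold, limma adjusted p = 0.000267). ILMN_2880067 differed by 0.28 (1.21-fold, limma adjusted p = 0.00307), in the same direction but outside both cutoffs. Each of these calls was lost in 8 of the 19 alternative settings, while the sign stayed the same in all of them. Some of the settings, such as the thresholds, cannot change the sign. Without control sample 2, or without moR-21 sample 2, both were lost and 2 members were called higher, Ndufa1 and Cox6c. Ndufa8 was also lost without moR-21 sample 3 and Ndufb3 without control sample 1, which left 3 called higher each time.

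A pair of complex I probes passed the p cutoff but not the fold cutoff, and both were lower. Ndufa10, an accessory subunit of the membrane arm, read 10.971, 10.983 and 10.996 in the controls and 10.69, 10.67 and 10.61 in the moR-21 samples. The difference was −0.33 (limma adjusted p = 7.33e-05), wider than the spread of the samples inside either group. Single arrays spread more than these averages: A and B read 10.52 and 10.71 for moR-21 sample 3, and 11.01 and 10.93 for control sample 1. Ndufv1, the core subunit that binds NADH and the flavin, read 11.76, 11.81 and 11.78 in the controls and 11.49, 11.46 and 11.56 in the moR-21 samples. Its difference was −0.28 (standard error 0.05, limma adjusted p = 0.000356). The limma adjusted p of Ndufv1 was 0.00926 with the background modelled by normexp and 0.00225 with median scaling, outside the p cutoff. Ndufa10 was not among the probes followed through the alternative settings.

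Core and accessory subunits of complex I differed in the sign of their probes. The core subunits carry the flavin and iron-sulfur clusters, and the accessory ones surround them. Of the 7 core probes tested, 1 lay above 0 and 6 below, with a median of −0.02, and 2 were lower at an adjusted p under 0.05, Ndufv1 and Ndufs7 (−0.19). Of the 33 accessory probes, 23 lay above 0 and 10 below, with a median of 0.08, and 11 were higher and 3 lower at that level. That is 28.6% lower among the core probes and 33.3% higher among the accessory ones, beside 16% lower and 17.9% higher over all tested probes, of which 51.7% lay above 0. These are counts over probes that share the same 6 samples, and the difference between the classes was not tested. Ndufs4, an accessory subunit needed for the stability of the complex, had 4 tested probes that disagreed, at 0.19, 0.19, −0.08 and 0.24. Ndufa4, now placed in complex IV although its name puts it in complex I, differed by 0.13 (limma adjusted p = 0.0492). It is one of the 33 accessory probes and of the 11 higher, and is absent from the complex IV counts.

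**Figure D2:**
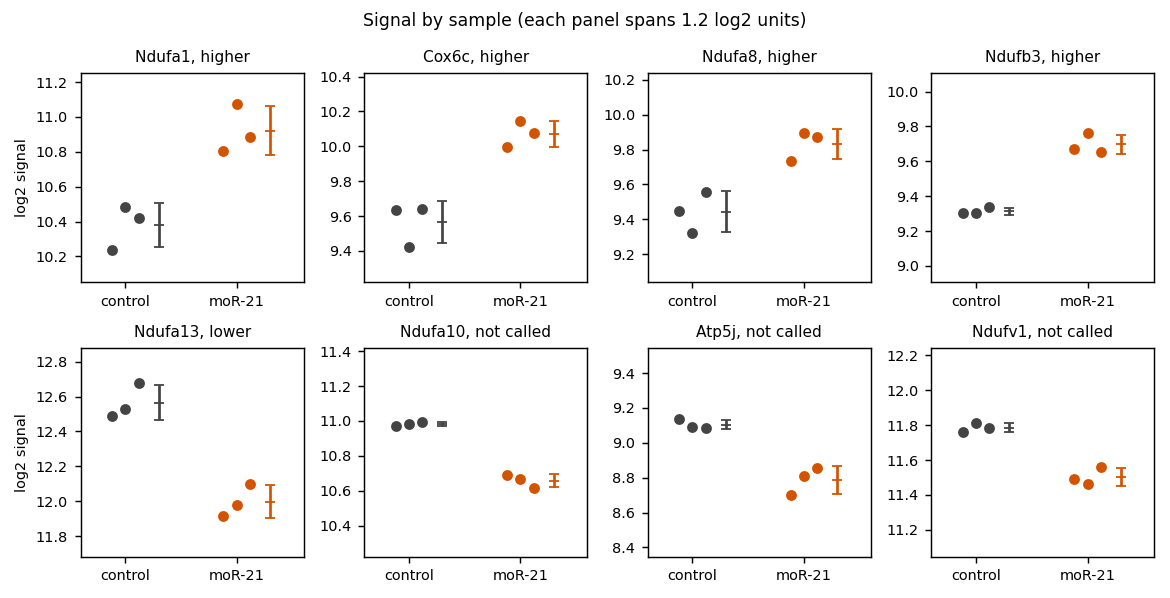
Log2 normalized signal (y axis) in the 3 control and 3 moR-21 samples for the 5 called probes and for 3 that passed the p cutoff but not the fold cutoff (Ndufa10, Atp5j, Ndufv1). Points are samples 1 to 3 from left to right in each group, the bar beside them is the mean with its SD, and every panel spans the same height; in each panel the groups do not overlap.

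Complex II oxidizes succinate and is shared with the tricarboxylic acid cycle. None of its 4 tested probes, for Sdhb, Sdhc and Sdhd, was called or had a limma adjusted p or an unadjusted p under 0.05, and their log2 changes ran from −0.04 to 0.08. The Sdhb probes, for the iron-sulfur subunit, gave 0.08 and −0.04. With a sample left out the first ran from 0.01 to 0.18, and it reached a limma adjusted p of 0.0384 without control sample 3. The median of complex II was 0.02, and it fell to −0.0006 without control sample 1 and to −0.0003 without moR-21 sample 2. Sdha was not analysed here. Complex III had 4 tested probes with a median of 0.16, and none was called. This median was 0.10 without control sample 2 or without moR-21 sample 2, reached 0.21 without control sample 3, and was 0.07 with no detection filter. Uqcrc2, a core protein of the complex, read 11.25, 11.16 and 11.28 in the controls and 11.49, 11.44 and 11.41 in the moR-21 samples. All moR-21 samples were above all controls, and the difference of 0.22 had a limma adjusted p of 0.00351. Its partner Uqcrc1 went the other way, by −0.10 (limma adjusted p = 0.129). Uqcrh, the hinge protein that helps cytochrome c dock, differed by 0.19 (limma adjusted p = 0.0449). Uqcrfs1, the Rieske iron-sulfur protein, was not detected on any array.

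Complex IV, cytochrome c oxidase, held the remaining call. Cox6c, a small regulatory subunit, lies on chromosome 15 (35931976 to 35938246). It read 9.64, 9.43 and 9.64 in the controls and 10.00, 10.14 and 10.08 in the moR-21 samples. The groups were well apart, and Cox6c rose by 0.50 on the log2 scale (standard error 0.06, 1.42-fold, limma adjusted p = 2.62e-05). Of the 12 tested probes of complex IV, which stand for 10 symbols, 8 lay above 0 and 4 below, with a median of 0.13. At an adjusted p under 0.05, 4 were higher and 1 lower, or 33.3% and 8.33%, beside 17.9% and 16% of all tested probes. The 1 lower was Cox6a2, near background and detected on control arrays only.

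Other complex IV subunits stayed within the fold cutoff. Cox6b1, which joins the dimer on the side facing cytochrome c, had probes at 0.26 (limma adjusted p = 0.00656) and 0.19 (limma adjusted p = 0.0546). Cox4i1, the ubiquitous form of subunit IV, read 12.52, 12.60 and 12.30 in the controls and 12.46, 12.49 and 12.42 in the moR-21 samples. The groups overlapped and the difference was −0.01, with a 95% interval from −0.16 to 0.13 that excludes a 1.3-fold change either way. Its sign turned with median scaling and in 3 of the 6 fits that left out a sample. Cox5a differed by 0.13 (limma adjusted p = 0.0863), which became 0.08 without moR-21 sample 1 and 0.18 without moR-21 sample 2 (limma adjusted p = 0.0186).

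Several complex IV subunits exist in forms that differ between tissues. The widespread forms Cox6a1 and Cox7a2 were detected, with log2 differences of 0.16 and 0.14 for the probes of Cox6a1 and 0.15 for Cox7a2. The heart and muscle forms Cox7a1 and Cox8b, the lung form Cox4i2 and the testis forms Cox7b2 and Cox8c were not detected on any array. Cox6a2, the heart and muscle form of Cox6a1, was detected on all 4 control arrays and on 0 of the 4 moR-21 arrays. It read 6.96, 7.03 and 6.94 in the controls and 6.81, 6.78 and 6.78 in the moR-21 samples, close to background. Against the lowest detected signal of the moR-21 arrays it was at least 1.11-fold higher in the controls. The measured difference was −0.19 (limma adjusted p = 0.00574). Cox6a2 passed the detection filter only through the control arrays, so this p-value is no support for a fall. It was called lower when the background was modelled with normexp, at −0.50, with the same limit.

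The ATP synthase had 14 tested probes, of which 8 lay above 0 and 6 below, with a median of 0.03. None was called, although 1 was higher and 1 lower at a limma adjusted p under 0.05. Each is 7.14% of the 14, beside 17.9% higher and 16% lower over all tested probes. Atp5a1 and Atp5b, the subunits of the catalytic head, differed by 0.07 and −0.05, and their adjusted p-values were 0.438 and 0.510 in limma. The sign of Atp5b turned with median scaling, to 0.02. With a sample left out Atp5a1 ran from 0.03 to 0.13, Atp5b from −0.08 to −0.02 and the median of the ATP synthase from 0.0038 to 0.05. That median was 0.01 or less without control sample 1, moR-21 sample 2 or moR-21 sample 3, and 0.05 without control sample 3. Of the genes for the rotating c ring, Atp5g2 read 10.03, 10.07 and 10.04 in the controls and 10.19, 10.38 and 10.21 in the moR-21 samples, a difference of 0.21 (limma adjusted p = 0.00920). Atp5g3 differed by 0.05 (0.01 to 0.08 with a sample left out), and Atp5g1 was not analysed here.

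Atp5j, which encodes coupling factor 6 of the stalk, gave different answers by probe. ILMN_2611261 read 9.14, 9.09 and 9.08 in the controls and 8.70, 8.81 and 8.85 in the moR-21 samples, a difference of −0.32 that passed the p cutoff (limma adjusted p = 0.000245) but not the fold cutoff. With normexp its limma adjusted p was 0.00346 and with median scaling 0.00238, both outside the p cutoff. ILMN_2962632 read 11.28, 11.17 and 11.28 in the controls and 11.10, 11.29 and 11.06 in the moR-21 samples, and its difference of −0.09 was within the spread of the groups (limma adjusted p = 0.262). The array table used here gives no probe positions, so which transcripts the probes read was not determined. In all, 12 gene symbols had several tested probes.

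The name rule also matched 5 genes that are not subunits of the 5 complexes. Ndufaf1 is an assembly factor of complex I, Cox7a2l joins complexes into larger assemblies, Cox4nb is the older name of Emc8 of the endoplasmic reticulum, and Atp5s and Atp5sl are the older names of Dmac2l and Dmac2. Their 6 probes ran from −0.01 to 0.18 and none was called. Ndufaf1 differed by 0.01, and its sign turned in 4 of the 19 alternatives. Another 11 symbols had no detected probe, among them Ndufs1, the largest core subunit of complex I, with Ndufab1, Ndufb4, Uqcrq and Atp5k.

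By sample, the members did not separate as a whole. The median deviation of the 80 probes from their 6-sample mean was −0.06, −0.03 and 0.01 in control samples 1 to 3 and −0.02, 0.07 and 0.04 in moR-21 samples 1 to 3. The groups overlapped, since control sample 3 lay above moR-21 sample 1. In complex IV the 3 moR-21 medians (−0.01, 0.06 and 0.05) lay above the 3 control medians (−0.08, −0.03 and −0.06). Of the moR-21 samples, sample 2 was the highest in 44 of the 80 probes and sample 1 the lowest in 47. Control sample 3 was the highest control in 47. The median SD of a member was 0.06 in the controls and 0.08 in the moR-21 samples, beside 0.05 and 0.06 over all tested probes. The arrays of control sample 1 differed by a median of 0.07 over the members, and those of moR-21 sample 3 by 0.06.

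**Figure D3:**
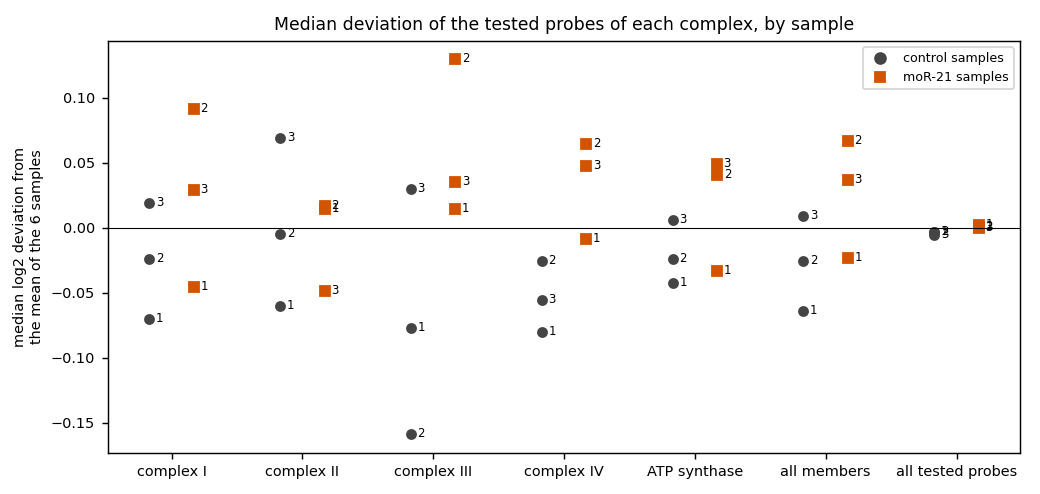
Median log2 deviation from the mean of the 6 samples (y axis) over the tested probes of each complex, of all members and of all tested probes, with control samples as circles and moR-21 samples as squares, numbered 1 to 3. The groups overlap in complex I, complex II, complex III, the ATP synthase and all members, and lie apart in complex IV; for all tested probes the medians stay within 0.01 of 0.

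Larger changes were found in other mitochondrial genes, taken from lists of related genes. Over all tested probes 3.12% were called higher and 3.85% lower, the shares to set beside the counts of these lists. Vdac1, the channel through which ATP and metabolites cross the outer membrane, read 8.82, 8.88 and 8.93 in the controls and 7.52, 7.49 and 7.55 in the moR-21 samples. It fell by 1.36 (standard error 0.05, 2.56-fold lower, limma adjusted p = 1.55e-10). Vdac2 (0.05) and Vdac3 (0.14) were not called. Of the 7 tested probes of membrane carriers, Vdac1 was the only call, and Slc25a5, an ADP/ATP carrier, differed by 0.32 (limma adjusted p = 0.000591) below the fold cutoff.

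Genes that feed the chain moved in both directions. Of 24 tested probes for the tricarboxylic acid cycle and pyruvate dehydrogenase, 2 were called higher and 2 lower, with a median of 0.02. Each count is 8.33% of the 24, beside 3.12% higher and 3.85% lower over all tested probes. Pdk1, a kinase that switches pyruvate dehydrogenase off, rose by 0.59 (limma adjusted p = 6.66e-07), while Pdk4, a kinase of the same family, fell by 0.45 (limma adjusted p = 1.58e-05). Malate dehydrogenase Mdh2 rose by 0.44 and Idh3a, the catalytic subunit of NAD-dependent isocitrate dehydrogenase, fell by 0.39. Fumarase Fh1 differed by 0.37, just under the fold cutoff, with a limma adjusted p of 0.000234.

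Among genes of mitochondrial biogenesis and DNA, 1 of 16 tested probes was called. Tfb2m, a factor that starts transcription of mitochondrial DNA, fell by 0.39 (limma adjusted p = 3.20e-05). Nrf1, a transcription factor that binds many promoters of respiratory chain genes, differed by −0.35 (limma adjusted p = 3.90e-05), short of the fold cutoff, and Ppargc1a was not detected. Of 20 probes for protein import, Tomm22, a receptor of the outer membrane, was the only call and fell by 0.60 (limma adjusted p = 2.60e-06). Of 26 probes for assembly factors, Cox10, needed to make the heme of complex IV, was the only call and fell by 0.41 (limma adjusted p = 2.31e-05). Cyc1, the cytochrome of complex III, differed by −0.10 (limma adjusted p = 0.166). 2010107E04Rik, listed with the subunits outside the name rule, differed by 0.29. It passed the p cutoff (limma adjusted p = 0.000455) but not the fold cutoff. Cycs, cytochrome c itself, was detected on 1 of the 8 arrays, too near background for its level to be compared.

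**Figure D4:**
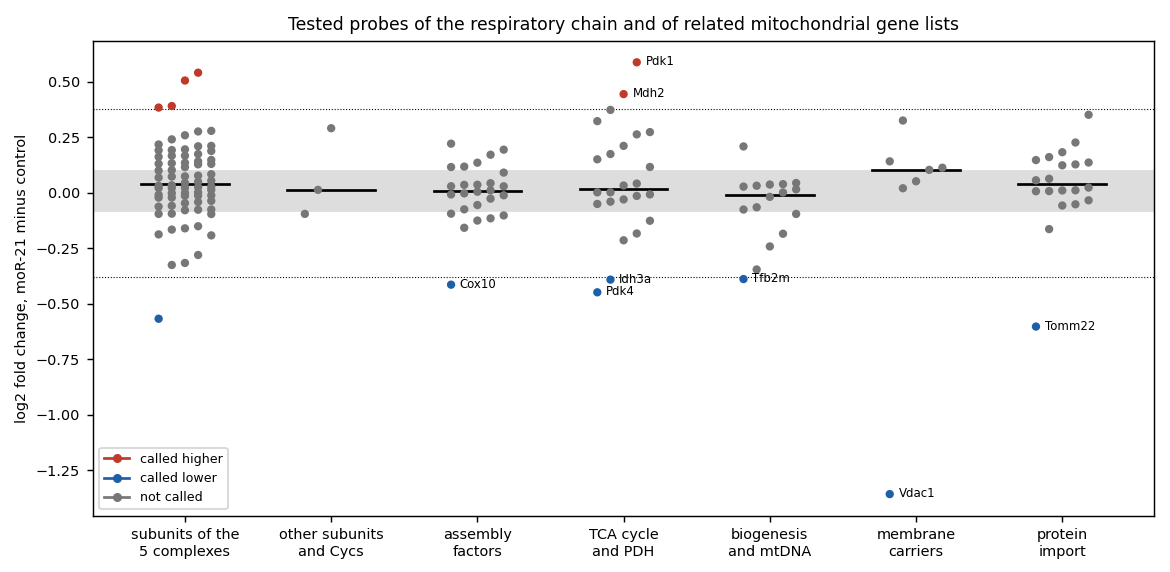
Log2 fold change (moR-21 mimetic minus scrambled control, y axis) of each tested probe of the subunits of the 5 complexes and of 6 lists of related mitochondrial genes, with the median of each list as a bar. Red points were called higher and blue lower, dotted lines mark a 1.3-fold change, and the grey band holds the middle of all tested probes from the lower to the upper quartile. Called genes of the related lists are named, and Vdac1 at −1.36 lies lowest.

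Other large protein families gave the scale for these counts, beside 3.12% called higher and 3.85% lower over all tested probes. Of 88 probes of mitochondrial ribosomal proteins, 4 were called higher and 2 lower, with a median of 0.03. Of 62 probes of cytosolic ribosomal proteins the counts were 3 and 2, with a median of 0.02, and of 44 proteasome probes 3 and 0, with a median of 0.07. The respiratory chain and ATP synthase stood at 4 and 1 of 80, with a median of 0.04. At an adjusted p under 0.05 with no fold cutoff, 28.4% of the mitochondrial ribosomal probes were higher and 11.4% lower. The shares were 19.4% and 11.3% for cytosolic ribosomal probes and 20.5% and 0% for proteasome probes. They were 23.8% and 8.75% for the respiratory chain and ATP synthase, and 17.9% and 16% over all tested probes. An excess of higher over lower was thus not particular to the respiratory chain.

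Promoters of the members that rose were read because binding sites for shared factors are a known feature of this gene family. RefSeq windows of GRCm38.p6, from 250 bases before to 50 after the start, were found for 63 of the 77 symbols, as 69 windows. On either strand, GCATGCGC, a sequence bound by NRF1, was in 13.04% of the members' windows and in 2.71% of all 32851 windows. CCGGAAG, bound by ETS factors such as GABPA, was in 23.2% and 8.86%. AAGATGGC, bound by YY1, was in 17.4% and 2.75%. CCAAT was in 40.6% and 37.4%. These matches are descriptions of sequence and say nothing about binding in these cells.

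Of the genes called higher, Ndufa1, Ndufa8 and Ndufb3 had a window, and Cox6c is named only. Stretches of 30 bases are shown, with a match in capitals. The first, at chrX:37191239-37191268 on the minus strand, ends at the start of Ndufa1, whose window held none of the 4 motifs. The second, at chr2:36049339-36049368 on the minus strand, ends at the start of Ndufa8 with the NRF1 sequence. The third, at chr1:58586330-58586359 on the plus strand, holds CCAAT, read on the opposite strand, 48 bases before the start of Ndufb3.
Ndufa1: ccgggaacgcttgctggaccgcgaacgcca
Ndufa8: gcgcttgcgcgtcgctggagacGCATGCGC
Ndufb3: taacaaccgctctcATTGGctgcgctatga

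The cultures also differed in markers of cell type. The summed signal of 17 smooth muscle marker probes was 14610 to 14780 in the controls and 19045 to 20178 in the moR-21 samples. All 4 probes of Acta2, smooth muscle actin, were called higher, and they were the only calls among the 13 tested probes of the list. Desmin, Des, went the other way (−0.38, limma adjusted p = 8.60e-05), just short of the fold cutoff. The Mylk probes differed by 0.24 and 0.13, Smtn by −0.05 to 0.05 and Tpm2 by 0.04. Tagln (0.20) and Lmod1 (0.05) were near background, detected on 4 and 3 of the 8 arrays. Cnn1 and Myh11, further markers of mature smooth muscle, were not detected. The summed signal of 7 mesothelial marker probes was 1744 to 1852 in the controls and 1031 to 1070 in the moR-21 samples, and its calls were the 3 probes of Upk3b, all lower. Krt19 differed by −0.13 (limma adjusted p = 0.115), and Msln, Krt8 and Krt18 were not detected. For 13 macrophage probes it was 2557 to 2613 and 2333 to 2372, with Cd14 at −0.27 and Csf1r at −0.01, while Aif1, Cd68, Emr1, Itgam and Ptprc were not detected. For 12 endothelial probes it was 1432 to 1463 and 1424 to 1453. These sums include the background of undetected probes. With every probe at the array median they would be 1784 for the smooth muscle list and 735 for the mesothelial list. The macrophage list would be at 1364 and the endothelial list at 1259. Egfl7 (ILMN_3163288, −0.10) and Vwf (0.06, near background) were detected on all 8 arrays and not called. The endothelial genes Pecam1, Cdh5, Kdr, Tek, Tie1, Emcn and Esam were not detected. In such cultures fewer cells of a type and less RNA per cell cannot be told apart, and the part of these markers in the changes above was not tested.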

How the data were processed

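Expression was measured on 8 Illumina BeadChip arrays of 6 samples. The authors deposited the intensity of each probe on each array, non-normalized, with a detection p-value; no filter is stated. The labels name lumi, and the study's methods name quantile normalization and limma. They also name a pair of array designs.

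All arrays were quantile normalized jointly, log2 values of repeat arrays were averaged by sample, and limma 3.58.1 (lmFit, eBayes; R 4.3.3) compared the groups without covariates. Tested were the 11651 probes detected (p-value under 0.01) on any array, with Benjamini-Hochberg adjustment over all of them. The fit was first tested on simulated data. The number of samples limits the precision. The median intensity was 102 to 109 and 10285 to 10512 probes were detected per array. Each probe was read on its own. Gene symbols are those of the array table; 72 of 77 are current in GRCm38.p6 and 5 matched a synonym.

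Named genes are the called members, the largest rise and fall of each complex, catalytic or core subunits, tissue isoforms and the Ndufaf assembly factor; other members were picked with their values known. The members and lists were chosen with earlier results of these data known. Alternatives changed the background correction, normalization, detection filter, repeat arrays, variance model, replicate block, thresholds and samples. Sequences come from RefSeq tables read with Python 3.11.15 and pandas 2.3.3.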

Additional observations from a re-analysis of the deposited data

How the results depend on the processing

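Under the 19 alternatives the direction of Ndufa1, Cox6c, Ndufb3, Ndufa8 (ILMN_2682019) and Ndufa13 stayed the same, and Ndufa1, Cox6c and Ndufa13 kept their calls in all but the 1.5-fold cutoff. The thresholds, the variance model and the replicate block leave the fold change as it is, so no direction could turn there. The looser thresholds could not lose a call. That cutoff left 0 members called higher and 0 lower, and 260 of all tested probes. With no fold cutoff and an adjusted p under 0.05 there were 19 higher and 7 lower, and 3943 of all probes. Of the members, 2 were called higher with median scaling, with cyclic loess and with array B alone. With normexp 2 were called lower, since it added Cox6a2, which was detected on control arrays only. Leaving out each sample gave 2 to 4 called higher, 1 lower each time, and 772 to 851 of all probes. The median of complex III was 0.0673 and that of complex IV 0.0423 with no detection filter, and that of complex IV was 0.0976 with array A alone and 0.0930 to 0.131 with a sample left out, when that of complex III was 0.103 to 0.211. The sign turned for 3 named probes close to 0: Atp5b (0.0241) and Cox4i1 (0.00593) with median scaling, and Ndufaf1 with array B alone (−0.0377) and with duplicateCorrelation (−0.000502). With a sample left out Cox4i1 ran from −0.101 to 0.0486 and Ndufaf1 from −0.00840 to 0.0503. The causes were not tested.

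With the replicate number as a block (replicate block), 4 members were called higher and 1 lower, and these were the 5 genes named above. Samples with the same number deviated together only weakly (correlations of 0.19, 0.04 and 0.06). Correlations between different numbers ran from −0.13 to 0.07 and most were negative, with the 0.07 for control sample 3 and moR-21 sample 2. The numbers were not taken as pairs, and whether the samples were paired was not settled. With 3 samples a group and signals near background for Cox6a2, Cox6b2, Cox7b, Atp5e and single probes of Ndufa5 and Ndufb11, smaller changes of these genes could not be resolved.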
